A study of Mus musculus with 5 samples.

Results

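The peaks described here are those that antibody ab2 alone gave in a ChIP-Seq study of NEUROD2 in the embryonic mouse cortex. They were chosen by position. A peak of ab2 on chromosomes 1 to 19, X or Y was kept when it shared no base with any peak of ab1 or ab3, the other NEUROD2 antibodies. The rule kept 2645 of the 35309 ab2 peaks on these chromosomes (7.49%), out of 94621 peaks in the lists of the 3 antibodies. They are called ab2-only peaks below, and the other 32664 ab2 peaks are called shared. The 18825 peaks of ab1 that share no base with a peak of ab2 or ab3 are called ab1-only. They serve as a second comparison chosen by the same rule, but the lists differ in size. In full, the ab1 list has 51841 entries, the ab2 list 35310 and the ab3 list 7470. Ab1-only peaks were thus filtered against smaller lists than ab2-only peaks were, and the sets are not equivalent. Without the ab3 list the rule kept 2662 ab2 peaks, so ab2-only chiefly means absent from the ab1 list.

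Chromatin came from the cerebral cortex of BALB/c embryos at E14.5, which were not treated and carry no transgene in the labels. Each precipitate was sequenced as 1 library, from cortices pooled over embryos of several mothers. The NEUROD2 antibodies were ab168932 (ab1, raised in mouse), ab104430 (ab2, rabbit) and ab109406 (ab3, rabbit), all from Abcam. The controls were precipitates with antibodies against GFP, which wild-type mice lack, with 4B10B2 from Pierce used for ab1 and sc-8334 from Santa Cruz used for both ab2 and ab3. There is 1 library per antibody and a single condition, so no value below has a replicate error. Antibody, library and control library change together between ab1 and ab2 and cannot be told apart. ab2 and ab3 share their control, and the ab2-only peaks could be set against no second ab2 library. The cortex also holds cells other than projection neurons, and peaks of a dissected tissue cannot be assigned to a cell type.

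NEUROD2 is a basic helix-loop-helix (bHLH) transcription factor of post-mitotic excitatory neurons. Such factors bind DNA as dimers with E-proteins at the E-box, a hexamer with CA at its start and TG at its end whose middle bases differ between factors. In the cortex the NEUROD and NEUROG factors act in neuronal differentiation, migration and connectivity. The comparisons below therefore concern the E-box around the middle of the peaks, motifs of factors that sit at promoters and enhancers, and the position of peaks relative to transcription start sites (TSSs).

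The extended E-box searched here reads CA, then G or T, then C or A, then TG, then G or T, on either strand. Below are the central 200 bases of the ab2-only peaks with the highest scores that contained an extended E-box. They lay over 1 kb from a TSS and outside exons. All sequences are from the plus strand of GRCm38 (mm10), and capitals mark the extended E-boxes. The Cacng4 sequence is at chr11:107784212-107784411, in the first intron of the gene, 10.2 kb from its TSS. The Pax3 sequence is at chr1:78217221-78217420, between genes and 20.2 kb upstream of the TSS. The Nhsl1 sequence is at chr10:18375534-18375733, in the first intron, 56.6 kb from the TSS.
Cacng4: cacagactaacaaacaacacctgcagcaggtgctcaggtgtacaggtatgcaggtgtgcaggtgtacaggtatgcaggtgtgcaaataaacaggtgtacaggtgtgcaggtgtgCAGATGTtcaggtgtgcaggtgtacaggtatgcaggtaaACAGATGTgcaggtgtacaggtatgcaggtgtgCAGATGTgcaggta
Pax3: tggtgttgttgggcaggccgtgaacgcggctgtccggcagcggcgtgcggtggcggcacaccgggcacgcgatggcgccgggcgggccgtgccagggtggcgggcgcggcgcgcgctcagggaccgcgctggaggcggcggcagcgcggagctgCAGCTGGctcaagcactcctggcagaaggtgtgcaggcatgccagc
Nhsl1: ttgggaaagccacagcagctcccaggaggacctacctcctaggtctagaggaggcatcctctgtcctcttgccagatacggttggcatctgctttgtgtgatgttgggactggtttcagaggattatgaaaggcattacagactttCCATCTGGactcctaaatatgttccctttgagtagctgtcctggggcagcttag

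The Cacng4 sequence is made of short tandem units and holds 3 extended E-boxes and 13 E-boxes of the form CACCTG, counted on both strands, while the Pax3 and Nhsl1 sequences hold 1 extended E-box each. In the reference, 9.5% of the Cacng4 bases are marked as repeat. The Pax3 sequence has a GC content of 76.0%, against 50.5% in each of the other two.

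The corresponding sequences of the highest-scoring ab2-only peaks without an extended E-box, also over 1 kb from a TSS and outside exons, follow. Capitals mark any other motif searched. Nsd1 stands for chr13:55190266-55190465, between genes and 19.4 kb upstream of the TSS. Kitl stands for chr10:100022305-100022504, in the first intron, 6.78 kb from the TSS. Cul1 stands for chr6:47318924-47319123, between genes, 135.3 kb upstream.
Nsd1: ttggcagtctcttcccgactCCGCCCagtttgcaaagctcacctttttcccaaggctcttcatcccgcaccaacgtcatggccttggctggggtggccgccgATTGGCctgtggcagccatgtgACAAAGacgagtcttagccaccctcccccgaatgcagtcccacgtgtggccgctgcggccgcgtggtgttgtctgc
Kitl: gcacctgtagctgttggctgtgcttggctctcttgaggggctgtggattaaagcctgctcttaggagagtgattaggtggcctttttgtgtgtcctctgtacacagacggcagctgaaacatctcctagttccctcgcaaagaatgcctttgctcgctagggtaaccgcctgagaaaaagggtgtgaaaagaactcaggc
Cul1: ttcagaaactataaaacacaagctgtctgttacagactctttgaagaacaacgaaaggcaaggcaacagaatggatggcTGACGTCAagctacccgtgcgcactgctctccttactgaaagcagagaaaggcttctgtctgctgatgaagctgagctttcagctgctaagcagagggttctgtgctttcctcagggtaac

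The capitals in the Nsd1 sequence are a GC box, an NF-Y box and a SOX site, in this order. The Kitl sequence held none of the 16 motifs. E-box hexamers with other middle bases than the extended form, or without its flanking base, are not marked, and the Nsd1 and Kitl sequences hold 2 each and the Cul1 sequence 1. The Cul1 sequence held a cAMP response element (CRE), TGACGTCA, the site of CREB-family factors.

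The last set shows ab2-only peaks within 1 kb of the TSS of a protein-coding gene, with the same marking. It holds the highest-scoring ones whose central window lay outside exons. Rprd2 stands for chr3:95819568-95819767, 0.91 kb upstream of the TSS. Gabrb2, which encodes a GABA-A receptor subunit, stands for chr11:42420108-42420307, in the first intron, 0.451 kb downstream of the TSS. Alkbh5, which encodes an RNA demethylase, stands for chr11:60537751-60537950, 0.127 kb upstream of the TSS.
Rprd2: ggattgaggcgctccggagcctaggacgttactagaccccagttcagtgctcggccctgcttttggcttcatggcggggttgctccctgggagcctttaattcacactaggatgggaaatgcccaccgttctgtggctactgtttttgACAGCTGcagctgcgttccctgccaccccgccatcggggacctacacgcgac
Gabrb2: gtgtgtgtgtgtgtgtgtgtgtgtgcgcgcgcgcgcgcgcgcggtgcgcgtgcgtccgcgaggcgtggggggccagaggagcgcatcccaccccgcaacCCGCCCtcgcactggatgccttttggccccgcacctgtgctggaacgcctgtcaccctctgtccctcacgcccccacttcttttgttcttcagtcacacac
Alkbh5: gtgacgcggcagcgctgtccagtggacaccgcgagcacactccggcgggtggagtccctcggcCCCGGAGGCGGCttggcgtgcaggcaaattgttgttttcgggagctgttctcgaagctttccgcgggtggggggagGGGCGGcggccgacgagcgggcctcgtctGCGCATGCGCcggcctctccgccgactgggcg

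The Rprd2 sequence contained 1 extended E-box, and its peak lay 69 bp from a peak of ab1. The Gabrb2 sequence contained a GC box, the site of SP and KLF factors. The Alkbh5 sequence contained, in order, a CTCF core, a GC box and an NRF1 site read on both strands. Neither of these 2 sequences contained an extended E-box, and their peaks lay 122 and 81.6 kb from the nearest peak of ab1.

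The deposited score is the −log10 p-value that MACS gave a peak, multiplied by 10, and the lists start at a score of 50. The ab2-only peaks lay close to that limit. Their scores ran from 50.01 to 260.35 with a median of 60.91, against a median of 139.36 for shared ab2 peaks. The score comes from the list the rule was applied to, so it is given as a description. Of the ab2 peaks with a score of 50 to 60, 28.2% were ab2-only, and the share was 17.6% at 60 to 75, 8.32% at 75 to 100 and 2.85% at 100 to 150. At 150 and above it was 0.0908%, which is 14 of 15416 peaks. Ab2-only peaks had a median width of 571 bp, shared ab2 peaks of 785 bp and ab1-only peaks of 561 bp. Ab1-only peaks had a median score of 77.57 and a highest score of 1703.4, but scores of different libraries are not on a common scale.

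**Figure D1:**
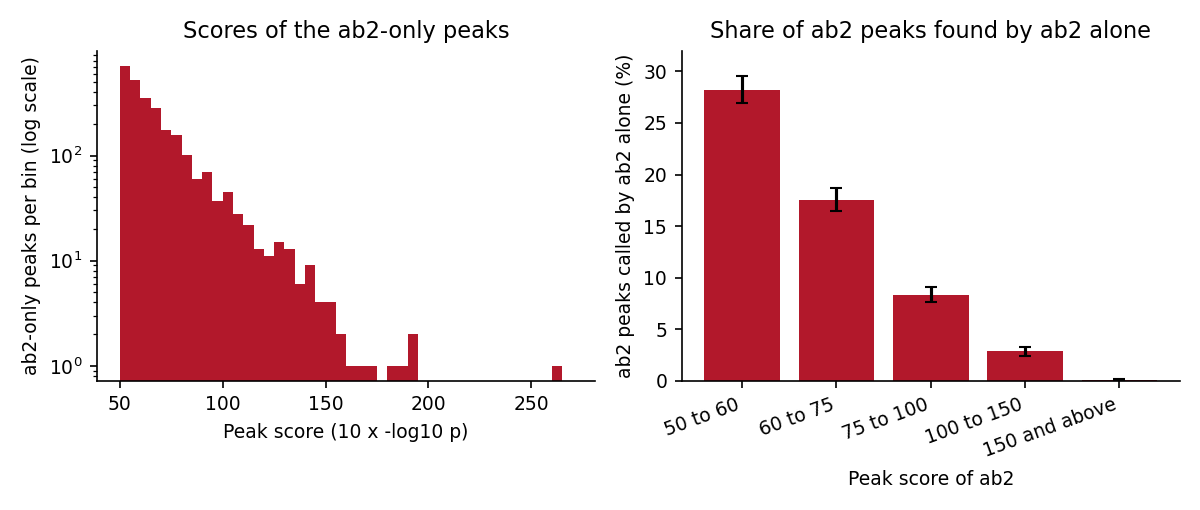
Left, number of ab2-only peaks in bins of 5 units of peak score, on a log scale. Right, share of ab2 peaks that were ab2-only in each range of score, with 95% Wilson intervals. The share falls from 28.2% in the lowest range to 0.0908% in the highest.

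The label of the set says that ab2 alone found these peaks, and the distance to the other lists shows how far this holds. The gap from an ab2-only peak to the nearest peak of ab1 had a median of 10.49 kb, with quartiles of 3.02 and 26.9 kb. It was under 1 kb for 318 of them (12.02%), which thus adjoin sites that ab1 also marked, and at least 50 kb for 350 (13.2%). Just inside the rule were peaks 4, 6 and 10 bp from a peak of ab1, near Sh3rf3 (chr10:58925757-58926118, score 58.66), Wdr31 (chr4:62457302-62457609, score 52.91) and Lhx9 (chr1:138843334-138844125, score 90.74). Just outside it were peaks that shared 7 bp with ab1 near Gpc5 (score 66.93), 11 bp with ab3 near Ppp1r14b (score 83.04) and 12 bp with ab1 near Nrros (score 60.97). Of the ab2-only peaks, 30 lay within 1 kb of another ab2-only peak and 130 within 10 kb, with a median distance of 216.7 kb. No reference spacing was computed, so these values do not tell scatter from clustering.

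The extended E-box stood at the centre of most ab2-only peaks. It was present in the central 200 bp of 1392 of the 2645 peaks (52.6%, 95% Wilson interval 50.7 to 54.5%), beside 59.2% of all ab2 peaks. In windows of the same length 1000 bp beyond the start and the end it was present in 22.9% and 22.6%. The centre exceeded both flanks (McNemar's exact test, two-sided, adjusted p = 5.7e-108 against the flank before the start and 1.67e-111 against the flank after the end). These tests count peaks, which are not replicates of a condition, and cover counting error only. Per 50 bp, extended E-boxes numbered 19.7 and 20.6 for each 100 ab2-only peaks on the 2 sides of the midpoint, and 6.77 and 6.58 at the outermost bins, 1000 bp away.

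**Figure D2:**
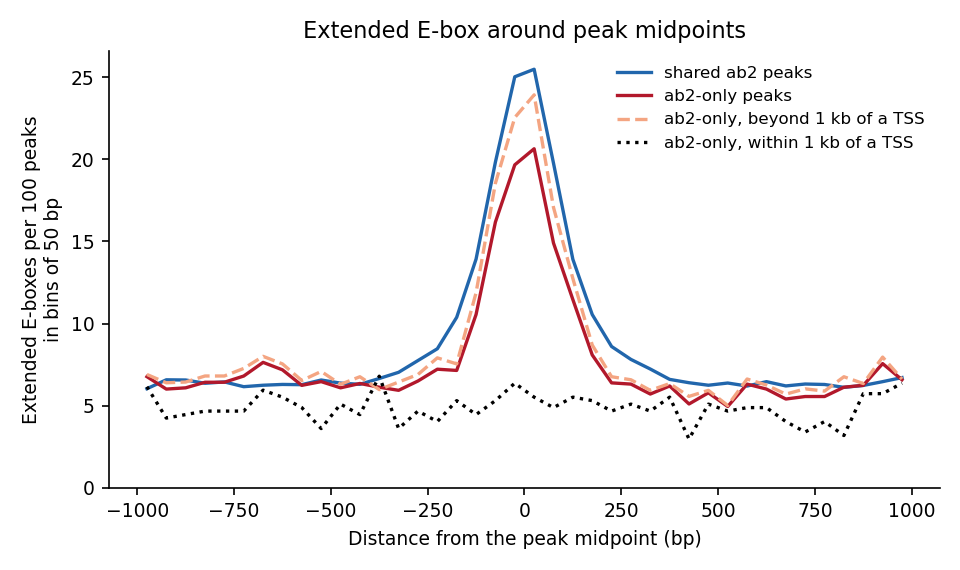
Extended E-boxes per 100 peaks in bins of 50 bp, by distance from the peak midpoint, for shared ab2 peaks, ab2-only peaks, and ab2-only peaks beyond and within 1 kb of a TSS. All curves but that of the ab2-only peaks within 1 kb of a TSS rise around the midpoint, to 20.6 per 100 for ab2-only peaks and 25.5 for shared peaks.

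The extended E-box in the central 200 bp was less frequent in ab2-only peaks than in shared ab2 and in ab1-only peaks, and the difference from ab1-only peaks depended on the window and on the form of E-box counted. The central share was 59.7% in shared ab2 peaks and 57.8% in ab1-only peaks. The difference was −7.07 percentage points from shared ab2 peaks (95% Newcombe interval −9.04 to −5.09) and −5.19 points from ab1-only peaks (−7.22 to −3.16). Among peaks with a score under 100 in both sets, an alternative added after the values had been seen, the differences were −6.55 (−8.71 to −4.39) and −7.28 points (−9.43 to −5.15), the latter across libraries whose scores are not on a common scale. The difference from ab1-only peaks was −7.16 points (−14.3 to 0.252) at scores of at least 100 and −0.907 points (−2.63 to 0.744) when whole peaks were searched, and with any E-box, CANNTG, it was 0.438 points (−1.16 to 1.95). These 3 intervals include 0. At scores of 100 to 150 the central difference from ab1-only peaks was −9.85 points (−17.4 to −2.09), which excludes 0. At 150 and above it was −16.3 points (−33.3 to 9.83). The gap to the nearest ab1 peak was examined as well. The share was 50.9% for ab2-only peaks under 1 kb from a peak of ab1, 51.6% at 1 to 10 kb, 54.5% at 10 to 50 kb and 51.7% at 50 kb or more, with overlapping 95% intervals.

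The deficit lay in the cores that the extended E-box contains. Of the 10 possible forms of the E-box hexamer, CAGCTG was in 24.8% of ab2-only and 28.5% of shared ab2 peaks, a difference of −3.65 points (−6.04 to −1.12, each interval at a level of 99.5% to allow for 10 forms). CAGATG was in 37.2% and 42.8%, a difference of −5.60 points (−8.31 to −2.82). CATATG was in 8.13% and 11.5%, a difference of −3.41 points (−4.87 to −1.72), with 5.92% in the flanks of ab2-only peaks and 5.55% in those of shared peaks. CACGTG went the other way, with 5.03% against 3.83% and a difference of 1.20 points (0.0896 to 2.56). This palindrome is the site of MYC, MAX, USF and related bHLH factors. The intervals of the other 6 forms included 0. CACCTG, for instance, was in 18.7% and 18.1%, over flanks of 13.0% and 13.7%. Relative to its flanks, CAGCTG was 2.81 times as frequent in the centre of ab2-only peaks and CAGATG 2.34 times, against 3.11 and 2.73 times in shared peaks.

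The E-box share of ab2-only peaks was lower within 1 kb of a TSS than beyond it, as in shared ab2 and ab1-only peaks. Of the 2645 midpoints, 471 (17.8%, 16.4 to 19.3%) lay within 1 kb of the TSS of a gene of any type, beside 15.8% of all ab2 peaks and 3.86% of the known bases of these chromosomes. Among these 471 peaks the E-box was in the centre of 89 (18.9%), while the flanks held it in 23.4% and 20.4%. The centre did not exceed the flanks (McNemar's exact test, adjusted p = 0.193 and 0.618). Among the 2174 ab2-only peaks beyond 1 kb of a TSS the E-box was in the centre of 1303 (59.9%), and in 22.8% and 23.1% of the flanks (McNemar's exact test, adjusted p = 2.67e-130 against each). Shared ab2 peaks within 1 kb of a TSS held the E-box in 27.6%, above their flanks of 21.1% and 21.4% (McNemar's exact test, adjusted p = 2.58e-14 and 4.39e-13). Of the 3452 ab1-only peaks within 1 kb of a TSS, 696 held it in the centre (20.2%), beside 748 and 725 in the flanks (McNemar's exact test, adjusted p = 0.263 and 0.391). Beyond 1 kb of a TSS the E-box was in the centre of 65.6% of shared ab2 peaks and 66.3% of ab1-only peaks.

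Within each class of position ab2-only peaks again held fewer E-boxes than shared ab2 peaks. The difference was −8.69 points (−12.2 to −4.72) within 1 kb of a TSS and −5.69 points (−7.84 to −3.58) beyond it. Against ab1-only peaks it was −1.27 points (−4.82 to 2.73) within 1 kb of a TSS, an interval that includes 0, and −6.34 points (−8.54 to −4.16) beyond it. The split by position was added after the values had been seen.

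A slightly larger share of ab2-only than of shared ab2 peaks lay at a TSS. The share within 1 kb was 15.6% for shared ab2 peaks, a difference of 2.20 points (0.737 to 3.76), and 18.3% for ab1-only peaks, a difference of −0.53 points (−2.05 to 1.07). Counting only TSSs of protein-coding genes, the shares were 14.7% for ab2-only, 12.6% for shared ab2 and 15.6% for ab1-only peaks. With scores under 100 in both sets, the difference from shared ab2 peaks was 0.207 points (−1.38 to 1.88), an interval that includes 0. Scores were not matched within this range. The difference was 0.133 points (−2.19 to 2.59) at 50 to 60 and 3.29 points (−0.473 to 7.53) at 75 to 100. From ab1-only peaks with scores under 100 it was 1.75 points (0.188 to 3.395), the opposite direction to that over all scores. At scores of at least 100 it was 3.90 points (−2.38 to 11.02), also opposite in sign, with an interval that includes 0. In narrower ranges it was 4.16 points (0.395 to 8.42) at 75 to 100 and 8.18 points (1.74 to 15.6) at 100 to 150. The intervals at 50 to 60, 60 to 75 and 150 and above included 0. A given score need not mean the same in the ab1 and ab2 lists, so these are not matched comparisons. At scores of at least 100 in both sets, the difference from shared ab2 peaks was 14.47 points (8.28 to 21.5). Ab2-only peaks within 1 kb of a TSS were mostly in the first 0.5 kb (415 of 471), with 340 midpoints downstream of the TSS and 131 upstream. More midpoints were downstream in the other sets too, with 3471 against 1626 for shared ab2 and 2446 against 1006 for ab1-only peaks. The share of TSS peaks was 11.3% for ab2-only peaks under 1 kb from a peak of ab1, 12.5% at 1 to 10 kb, 21.7% at 10 to 50 kb and 27.4% at 50 kb or more.

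**Figure D3:**
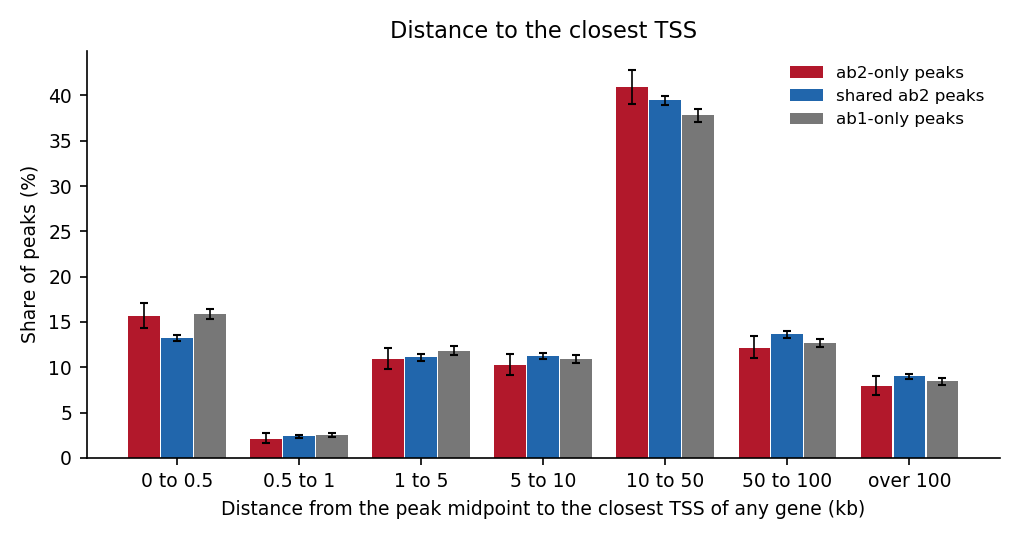
Share of peaks by distance from the midpoint to the closest TSS of a gene of any type, in bins of unequal width (kb), for ab2-only, shared ab2 and ab1-only peaks, with 95% Wilson intervals. The bin of 0 to 0.5 kb holds 15.7% of ab2-only peaks, 13.2% of shared ab2 peaks and 15.9% of ab1-only peaks.

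In transcripts, the first intron held 18.5% of the ab2-only midpoints, later introns 31.4%, 5′UTR exons 5.22%, coding exons 4.76% and 3′UTR exons 0.756%, and 37.2% lay between genes. The differences from shared ab2 and from ab1-only peaks were under 2 points in each of 7 kinds of segment, and no interval, at a level of 99.3%, excluded 0.

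The balance of E-box and TSS shifted with the score. Of the 180 ab2-only peaks with a score of at least 100, 44.4% held the E-box and 29.4% lay within 1 kb of a TSS, against 53.2% and 17.0% of the 2465 with lower scores. The differences were −8.78 points (−16.1 to −1.22) and 12.5 points (6.13 to 19.7). Over all positions, the E-box share of shared ab2 peaks differed little between the score ranges (59.6% against 59.8%, difference −0.129 points, −1.24 to 0.984), and their TSS share was lower at high scores (15.0% against 16.7%). Ab1-only peaks moved as ab2-only peaks did, from 60.5% to 51.6% for the E-box and from 15.2% to 25.6% for the TSS. Among ab2-only peaks beyond 1 kb of a TSS the E-box share was 55.1% at scores of at least 100 and 60.2% below, a difference of −5.12 points with an interval that includes 0 (−14.0 to 3.53). The same difference was −1.79 points (−2.96 to −0.614) for shared ab2 peaks and −3.55 points (−5.24 to −1.87) for ab1-only peaks, and both intervals exclude 0. Whether these shifts differ between the sets was not tested.

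**Figure D4:**
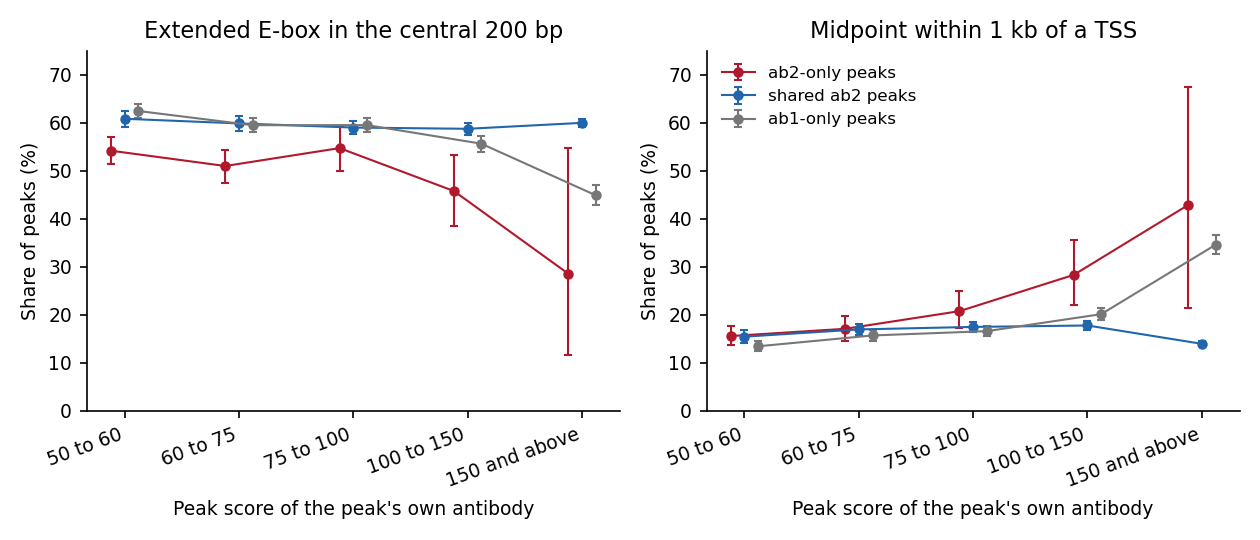
Share of peaks with the extended E-box in the central 200 bp (left) and with the midpoint within 1 kb of a TSS of any gene (right), by peak score of the peak's own antibody, for ab2-only, shared ab2 and ab1-only peaks. Points are shares and bars 95% Wilson intervals. For ab2-only peaks the E-box share goes from 54.2% in the lowest range to 28.6% of 14 peaks in the highest, and the TSS share from 15.6% to 42.9%.

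The other motifs in the central 200 bp were those of factors of promoters and enhancers. GC content was alike in the sets, with a median of 51.5% for ab2-only, 51.0% for shared ab2 and 51.5% for ab1-only peaks, and 66.0% for ab2-only peaks within 1 kb of a TSS. Of the 15 motifs besides the extended E-box, 2 differed between ab2-only and shared ab2 peaks at the level of 99.7% that allows for 16 motifs. The GC box was in 14.4% and 12.4%, a difference of 1.98 points (0.00709 to 4.18), and in 14.2% of ab1-only peaks. The NRF1 site, bound by a factor of housekeeping promoters, was in 20 ab2-only peaks (0.756%), 13 of them within 1 kb of a TSS. It was in 0.236% of shared peaks, a difference of 0.520 points (0.148 to 1.21), and in 0.207% of ab1-only peaks. The GC box was in 49.7% of ab2-only peaks at a TSS and in 6.72% of the others, and the shares in shared ab2 peaks were 47.5% and 5.90%.

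**Figure D5:**
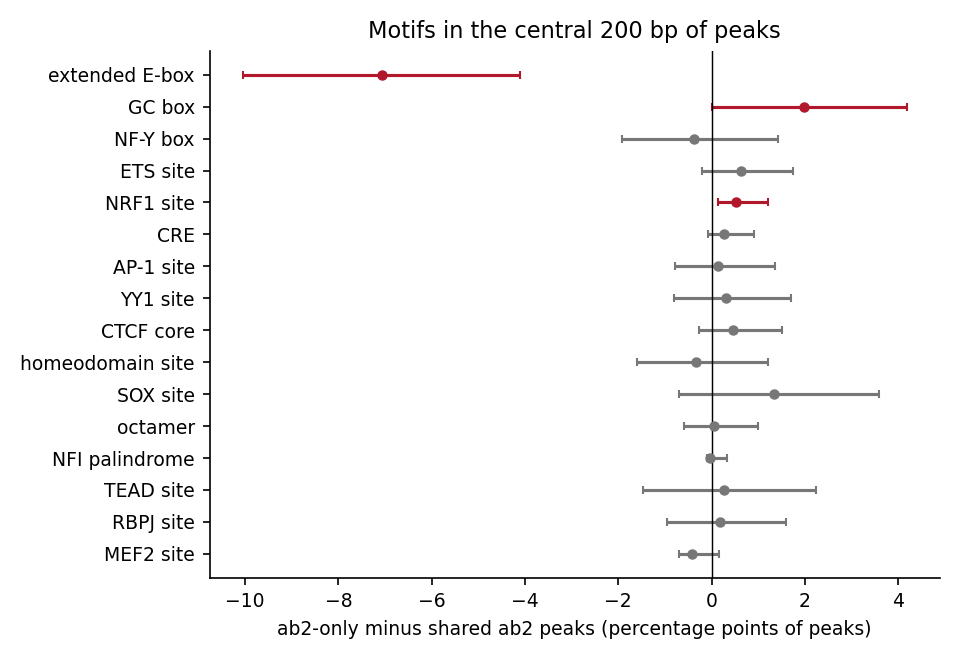
Difference between the shares of ab2-only and of shared ab2 peaks that hold each of 16 motifs in the central 200 bp, in percentage points, with Newcombe intervals at a level of 99.7%. Red marks the intervals that exclude 0, which are those of the extended E-box at −7.07, the GC box at 1.98 and the NRF1 site at 0.520 points.

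The remaining 13 motifs had intervals that included 0. The SOX site was in 15.2% of ab2-only and 13.8% of shared ab2 peaks, the homeodomain site in 5.82% and 6.15%, the ETS site in 2.72% and 2.10%, and the CTCF core in 2.23% and 1.77%. The letters searched, on both strands, were GGGCGG (GC box), GCCAAT (NF-Y box), CCGGAAG (ETS), GCGCATGCG (NRF1), TGACGTCA (CRE), TGACTCA (AP-1), AANATGGC (YY1), CCNNNAGGNGGC (CTCF core), TAATTA (homeodomain), ACAAAG (SOX), ATGCAAAT (octamer), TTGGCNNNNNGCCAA (NFI), GGAATG (TEAD), GTGGGAA (RBPJ) and TATTTATA (MEF2). The NFI palindrome can overlap an NF-Y box. A match is a description of the sequence and not a bound site. None of the 16 motifs was present in 18.0% of ab2-only peaks (476) and 17.0% of shared ab2 peaks, and no E-box of any form in 17.6% and 16.05%. Of 2053 hexamers present in at least 1% of shared ab2 peaks, those with the highest ratio of shares, ab2-only over shared, were CGGACA (1.64, in 118 ab2-only peaks), CGAACG (1.63, in 45), GTCCGA (1.601, in 66), GCGCTA (1.54, in 81) and ATAGCG (1.52, in 51). The lowest ratios were those of TTATAA (0.635, in 51), TATATA (0.672, in 35) and ATATGG (0.681, in 203). These are the extremes of many ratios and are given as a description, with no interval.

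The ab2-only peaks were also read by the closest protein-coding TSS. They were closest to 2141 of 21938 protein-coding genes (9.76%), and 1629 of these genes also had a shared ab2 peak closest to them (76.1%), as did 9605 of all 21938 (43.8%). Most had 1 ab2-only peak (1779 genes), and 7 was the highest number. The peaks with the highest scores fell into 2 kinds. Armc6 (chr8:70233750-70235137, score 192.48), Cdkl4 (chr17:80576985-80577689, 191.88), Mtif3 (chr5:146963214-146964041, 181.01), Eif2s3x (chrX:94212284-94213023, 171.93) and Tmed4 (chr11:6274302-6275228, 163.78) had the peak within 0.5 kb of the TSS and no extended E-box. Mtif3 encodes a mitochondrial translation initiation factor, Eif2s3x a subunit of the translation initiation factor eIF2, and Tmed4 a protein of vesicle transport in the early secretory pathway.

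The other 5 of the 10 highest were away from a TSS, and 3 of them had the E-box. Cacng4, whose product is an auxiliary subunit of AMPA receptors, had the highest score of all (chr11:107783848-107784775, 260.35), and a peak of ab1 with a score of 2072 lay 5.98 kb from it. Pax3, a paired-box factor of the dorsal neural tube and neural crest, had a score of 159.68 (chr1:78216519-78218123), 74.1 kb from the nearest peak of ab1. Nhsl1 had a score of 158.33. Nsd1, a histone H3 lysine methyltransferase, had a score of 189.55 (chr13:55189890-55190842) and Kitl, the ligand of the KIT receptor, 167.87 (chr10:100022048-100022761), both without the E-box. In all, 14 ab2-only peaks scored 150 or more.

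At protein-coding TSSs, 390 ab2-only peaks marked 390 genes. Of these genes, 156 (40%) had a shared ab2 peak closest at any distance, beside 43.8% of all protein-coding genes. Among the 10 highest scores, none had the extended E-box, beside 18.9% of all ab2-only peaks within 1 kb of a TSS. So few peaks cannot show a difference from that share. After the 5 genes above came Pkig (151.28), which encodes an inhibitor of protein kinase A, a peak in the 5′UTR exon of Gtf3c2 whose closest TSS was that of Gm29609 (145.33), Gins1 (144.58), a subunit of the GINS complex in DNA replication, Abhd11 (143.51) and Rab3gap2 (142.57). The nearest peak of ab1 was 6.62 kb away at Abhd11 and 129 kb away at Gins1.

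The 10 genes with the most ab2-only peaks, with ties broken by the summed score, had 55 of them, 38 with the E-box and 1 within 1 kb of the TSS, beside 52.6% with the E-box and 14.7% within 1 kb of a protein-coding TSS among all ab2-only peaks. Agpat4, an acyltransferase of phosphatidic acid synthesis, had 7, all with the E-box, at scores of 52.39 to 75.97. Nars2, a mitochondrial tRNA synthetase, had 6, of which 4 were in introns of Tenm4, a teneurin adhesion gene. Zfp608 and Etnk1 had 6 each. Cdh4 (a cadherin), Cadm1 (a synaptic adhesion molecule), Rbfox1 (a neuronal splicing factor), Myt1l (a neuronal zinc finger factor), Klf4 and Ubash3b had 5 each, and were those with the highest summed scores of the 10 genes with 5. At Cadm1, 3 ab2-only peaks with the E-box stood between 139 and 142 kb upstream of the TSS, at scores of 109.25, 104.77 and 54.05. The same genes had from 14 (Etnk1) to 71 (Zfp608) shared ab2 peaks.

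Gene lists of cortical development and of other cells were then counted, beside the 9.76% of all protein-coding genes. A gene that stands far from others collects more peaks, so the interval for which a gene's TSS is the closest is given as well, with a median of 47.7 kb over all protein-coding genes. For the 10 genes just described it ran from 455 to 1585 kb. The counts are descriptions and were not tested. Of 28 axon guidance genes, 15 had an ab2-only peak (25 peaks, median interval 755 kb), and ab2-only peaks were 5.12% of all ab2 peaks of the list, against 7.49% overall. The same share of a list's ab2 peaks is given for each list below. The highest scores were at the netrin receptor genes Unc5d (112.35, 325 kb upstream) and Unc5a (101.66, 68.9 kb upstream), the Eph receptor gene Ephb1 (90.89) and its ligand-family gene Efna5 (82.22), the last pair in the first introns. Unc5a and Ephb1 had the E-box there, and Unc5d and Efna5 did not.

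Among 20 genes of Reelin signalling and neuronal migration, 5 had an ab2-only peak, and ab2-only peaks were 3.95% of the ab2 peaks of the list (median interval 154 kb). The kinase gene Fyn had the highest score (72.56, 35.3 kb upstream, with the E-box), followed by the chemokine receptor gene Cxcr4 (65.93), Reln itself (57.47, in an intron) and Rnd3 (57.35). Of 21 cortical layer identity factors, 9 had one, and ab2-only peaks were 4.82% of the list's ab2 peaks (median interval 483 kb), with the highest scores at Tle4 (71.17), Nfib (71.04), Pou3f3 (70.78) and Pou3f2 (64.83), all with the E-box. Of 23 neuronal bHLH factors and partners, 9 had one, and ab2-only peaks were 8.93% of the list's ab2 peaks (median interval 101 kb). The peaks were at Bhlhe40, Id1 (77.72), Neurod6 (74.22) and Neurog1 (72.03) among others, with the E-box at all of these but Id1, an inhibitor of bHLH dimers whose peak lay 1.16 kb upstream. Of 20 radial glia and intermediate progenitor genes, 6 had one, and ab2-only peaks were 6.29% of the list's ab2 peaks (median interval 148 kb), the highest at Sox2 (68.82), Insm1 (68.75), Emx2 (60.32) and Hes5 (55.70).

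Among 22 synaptic and adhesion genes, 9 had an ab2-only peak, and such peaks were 9.35% of the list's ab2 peaks, the highest at Stx1a (69.13), Cntn1 (64.68), Grin2a (64.59) and Nlgn1 (64.25). Of 18 voltage-gated channel genes, 7 had one, and ab2-only peaks were 9.09% of the list's ab2 peaks, the highest at Cacna1a (110.67), Cacna2d1 (68.25) and Scn8a (65.37). The median intervals of these lists were 381 and 166 kb. Genes of other cell types and genes that all cells use are given for comparison. Of 21 subpallial and interneuron genes, 2 had one, Gad2 (59.80) and Maf (53.79), in intervals with a median of 152 kb. Of 20 genes of the cell cycle, 3 had one, Ccne1 (75.25), Cdk2 (62.70) and Cdkn1c (58.99). Of 16 microglial and vascular genes, 3 had one, Ptprc (64.59), Cldn5 (57.55) and Flt1 (53.93), each over 20 kb from the TSS. Of 22 cytosolic ribosomal protein genes, 2 had one, Rps24 (81.97) and Rpl8 (53.14), and of 18 respiratory chain genes, 0 had one. The median intervals were 43.2 kb for the cell cycle list, 67.9 kb for the microglial and vascular list, 15.1 kb for the ribosomal list and 26.6 kb for the respiratory chain list. Ab2-only peaks were 3.23% of the ab2 peaks of the subpallial list, 8.11% of the cell cycle list, 12.5% of the microglial and vascular list, 5.71% of the ribosomal list and 0% of the respiratory chain list. The microglial and vascular share was the highest of all lists given here, but it rests on 3 ab2-only and 21 shared ab2 peaks. Whether it differs from the 7.49% overall was not tested.

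Over all lists, 101 ab2-only peaks were closest to 69 list genes, and 51 of these peaks held the E-box, beside 52.6% of all ab2-only peaks. At 6 genes the peak was within 1 kb of the TSS, beside 14.7% of all ab2-only peaks. These shares were not tested. Stx1a, a syntaxin of synaptic vesicle fusion, had it 95 bp downstream of the TSS (chr5:135023025-135024128), Cntn1, a contactin, 436 bp downstream (chr15:92050848-92052353), and Gad2, a synthetic enzyme of GABA, 321 bp downstream (chr2:22622157-22622894). Slc1a3, a glutamate transporter of radial glia and astrocytes, had it 269 bp downstream (chr15:8710113-8710877, score 50.93), the kinase gene Cdk2 55 bp downstream (chr10:128704420-128705532) and Rpl8 413 bp downstream (chr15:76903783-76905198). Only the Cntn1 peak held the extended E-box. The nearest peak of ab1 was between 7.46 kb (Cdk2) and 272 kb (Gad2) away from these 6 peaks.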

How the data were processed

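The deposited files were the peak lists of ab1, ab2 and ab3. Per the methods, reads were aligned by the authors to mm10 using Bowtie, duplicates and multiply mapped reads were discarded, and MACS called peaks per library, with the GFP precipitate of the matching host species as control. Each peak has a deposited score, the caller's −log10 p-value multiplied by 10. Libraries were not scaled to each other. Read depth is not in these lists, so intervals cover counting error over peaks only. Peaks of the 3 lists were compared with a minimum of 1 shared base. Midpoints were placed on the GRCm38 sequence and on GENCODE M21, with the longest transcript of each gene. Shares were given with Wilson and differences with Newcombe intervals at 95%, widened where several motifs, cores or segments were compared. The E-box test was McNemar's exact test. The functions for peak overlap, closest TSS, the extended E-box search, McNemar's test and Newcombe intervals were first tested on simulated data. BALB/c bases that differ from the reference strain cannot be seen in the motif search.

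The set of peaks, the gene lists and the motifs were chosen with earlier results of these data known. Named genes were those closest to the 10 highest scores, to the most ab2-only peaks, list genes with a peak within 1 kb of the TSS or with the highest scores of a list (up to 4), of which 1 is not reported here, and the peaks at the edge of the rule. The genes of the 10 highest scores at coding TSSs and the promoter sequences were added once values were known. The alternatives were a score of at least 100, a gap of 500 bp, the rule without ab3, other windows, flanks and E-box forms, and other TSS sets. Tools were scipy 1.17.1 for tests, pandas 2.3.3 with numpy 2.4.6 for tables and matplotlib 3.10.9 for figures, run in Python 3.11.15. Reads and the GFP libraries were not used here.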

Additional observations from a re-analysis of the deposited data

How the results depend on the processing

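Of 44 values recomputed under the alternatives, 34 kept their direction and side of the threshold. The central E-box share of ab2-only peaks exceeded the flanks under every alternative, and the E-box deficit against shared ab2 peaks held in each, from −1.57 points with any CANNTG to −15.2 points at scores of at least 100. Peaks within 1 kb of a TSS were not an alternative by themselves, and their central share (18.9%) did not exceed the flanks (23.4% and 20.4%). A score of at least 100 left 180 ab2-only peaks, with 29.4% within 1 kb of a TSS and differences from ab1-only peaks of −7.16 points for the E-box and 3.90 points for the TSS share, the latter turned in direction, neither interval excluding 0. Against ab1-only peaks the E-box difference was −0.907 points over whole peaks and 0.438 points with CANNTG, and both intervals included 0. The TSS difference from shared ab2 peaks was 14.47 points at scores of at least 100. The TSS share was 14.7% with protein-coding genes alone and 22.3% with all annotated transcripts. With scores under 100 in both sets, the TSS difference was 0.207 points from shared ab2 peaks and 1.75 points (0.188 to 3.395) from ab1-only peaks, the latter again turned in direction. Where an alternative changed a value, the cause was not tested beyond the smaller number of peaks it kept. No paired analysis was possible because each antibody has 1 library. With 1 library per antibody, the repeatability of a peak near the score limit of 50 was not tested.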

Other observations

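The primer pairs of the study's ChIP-qPCR were placed on the genome by exact match. Of 12 pairs, 10 gave an amplicon, 7 of these amplicons lay on an ab2 peak, and 0 lay on an ab2-only peak. Ab2-only peaks were 7.49% of all ab2 peaks, so 0 of 7 amplicons cannot set them apart. The amplicons on no ab2 peak were those of Calb2, Gsx2 and Npy, which the study tested as non-targets. The nearest ab2-only peak was 3.51 kb from the Fezf2 amplicon, at a score of 55.60, and the farthest was 461 kb from that of Bcl11b.

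By chromosome, ab2-only peaks were between 5.63% (chromosome 15) and 9.56% (chromosome X) of the ab2 peaks, with 0 of 1 on chromosome Y. The share on chromosome X exceeded that on the other chromosomes by 2.10 points, with a 95% Newcombe interval of −0.0764 to 4.82 that includes 0. Repeat-marked bases made up over 50% of the length of 39 ab2-only peaks (1.47%), against 1.19% of shared ab2 and 2.10% of ab1-only peaks.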
